A study of Mus musculus with 12 samples.

Results

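The data described here are the gene expression values of group 3 innate lymphoid cells (ILC3s) sorted from the lamina propria (LP) of the small intestine, compared between mice raised on PA milk and on normal milk. PA milk is milk of mothers fed chow with added palmitic acid, a saturated fatty acid, and ND stands for the normal diet. The comparison used 6 of the 12 libraries of the series, 3 of PA milk and 3 of ND. Its members were all genes with an FPKM (fragments per transcript length and sequencing depth) of at least 1 in at least 3 of these 6 libraries, which 10837 of the 23284 genes in the table reached. The other 6 libraries, 3 against 3, came from the intraepithelial layer (IEL) and served for the difference between the layers.

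All mice were HR-1, a hairless strain, 18 weeks old, and the labels name no targeted allele. By the study's methods, pups were fostered to mothers on the palmitic acid chow and ate normal food once they fed on their own. The sort kept cells without lineage markers that carried Nrp1, CD25 and Thy1.2 together with CD4 in the methods text, whereas a legend of the study lists CD45 where the methods list CD4. Libraries were made with the SMART-Seq v4 kit, in which full-length cDNA of small RNA amounts is amplified by PCR. How many mice gave each library, and whether libraries came from separate mice, was not given in the sources used here, so the tests measure only the spread between these libraries.

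ILC3s are lymphocytes without rearranged antigen receptors that live in the gut wall, respond to interleukin-23 and interleukin-1 from neighbouring cells and secrete interleukin-22 and interleukin-17, which act on the epithelium. They develop under the helix-loop-helix inhibitor Id2 and under Tcf7, Tox and related factors, and are kept in place by chemokine receptors and by lipid-derived oxysterol ligands. Palmitic acid can be activated to its coenzyme A ester, oxidised, elongated, desaturated, stored as triglyceride or built into ceramide. Cholesterol is made from acetyl units through mevalonate, and its enzymes are controlled together by the transcription factor Srebf2.

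Reads behind the LP libraries, in units of 1e6, were worked out as 9.28 to 13.55, and 5637 to 11378 genes per library had an FPKM of at least 1. PA replicate 2 stood apart, with 9.85 in the same unit and 5637 genes, against 8406 and 11378 genes in PA replicates 1 and 3 and 9595 to 11282 in ND. Of the tested genes, 2362 were under 1 FPKM in PA replicate 2 alone, against 56 to 472 in each of the other 5 libraries alone. Across genes, Spearman's correlation of PA replicate 2 with the other LP libraries was 0.44 to 0.5, and that among the other 5 was 0.58 to 0.81. Values without this library are given beside the lists and genes whose direction it turns. Because cDNA was amplified without molecular identifiers, a value of 0 does not show that a transcript was lacking.

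Markers of the sort were read first, as a check of the labels. Ptprc, the gene of CD45, was at 22.2, 54.7 and 64.7 FPKM in replicates 1, 2 and 3 of PA milk and at 76.8, 73.8 and 24.5 in ND, so all 6 libraries held leukocyte RNA. Cd4 was listed at 0, 55.8 and 15.7 under PA milk versus 24.1, 63.3 and 13.5 under ND. Thy1, the gene of Thy1.2, was listed at 0, 0 and 1.02 against 0, 14.2 and 5.11. Il2ra, which encodes CD25, was at 0.0553, 0.130 and 7.19 against 1.35, 82.4 and 2.83, and Nrp1 was at 5.07, 0.0160 and 58.2 against 8.51, 31.5 and 19.1. Thy1 was thus listed at 0 in PA replicates 1 and 2 and in ND replicate 1, and Il2ra was under 1 FPKM in PA replicates 1 and 2. All 5 genes had a log2 fold change below 0, with a median of -1.54 (1 of 5 above 0 without PA replicate 2), although the mean FPKM of Nrp1 was 21.1 under PA milk and 19.7 under ND, and 0 of the 5 separated the groups. Cd3e, a T cell receptor subunit in the lineage cocktail's target cells, was at 13.6, 0 and 26.1 FPKM under PA milk versus 25.8, 39.3 and 48.9 under ND. The part that the purity of the sort plays in the results below was not tested.

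The cytokines that define ILC3s were seen in few libraries. Il22, the gene of interleukin-22, was at 0.0886, 0.311 and 0.416 FPKM under PA milk versus 0.164, 4339 and 198 under ND. Il17a was at 0.0808, 0 and 0 against 0, 217 and 43.5, and Il17f at 0.0802, 0.188 and 0.283 against 0.0743, 1637 and 75.7. All 3 cytokine genes were thus abundant in ND replicates 2 and 3 and near 0 in ND replicate 1 and in every PA library. With 2 of 6 libraries at 1 FPKM or more, these genes did not enter the test. Of the 8 tested cytokine genes of innate lymphoid cells, all had a log2 fold change below 0, with a median of -2.13, and -1.12 with 6 of 8 below 0 without PA replicate 2.

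No gene of the 10837 passed the test between PA milk and ND in LP. Limma on log2(FPKM + 1), fitted across all genes, called 0 genes (0.0%) at an adjusted p-value under 0.05, and the smallest adjusted p was 0.0533. At an unadjusted p-value under 0.05 there were 527 genes, 67 higher in PA milk (0.618% of those tested) and 460 lower (4.24%). With limma-voom on the reads worked out, 0 genes were called and 658 had an unadjusted p under 0.05, and limma with array weights called 2. Every PA library lay above every ND library for 358 genes (3.3%) and below for 746 (6.88%). This balance depended on the scaling and the libraries, with 609 above and 490 below after scaling on leukocyte genes, 1401 and 1208 without PA replicate 2, and 1049 and 2193 without PA replicate 3. In the exact permutation test, 3 libraries against 3 cannot give a p below 0.1, so neither count is a count of significant genes. Below, "higher" and "lower" describe the direction of the values and not a call.

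Of the tested genes, 6719 were lower and 4118 higher in PA milk, with a median log2 fold change of -0.37, which was -0.04 without PA replicate 2. In the more abundant part of the genes, the 5419 with a mean level at or above the median, the median was -0.15, with every PA library above ND for 275 (5.07%) and below for 261 (4.82%). In the other 5418 it was -0.61, with 83 above (1.53%) and 485 below (8.95%). The direction differed among the 3925 genes at 1 FPKM or more in all 6 LP libraries, a set without genes low in any library. Of these 3925, 2391 were higher and 1534 lower, with a median of 0.18. Every PA library lay above ND for 275 of the 3925 (7.01%) and below for 135 (3.44%). Among the 746 genes with every PA library below ND, 145 passed the level filter only through the 3 ND libraries and had to be lower. Among the 358 above, 10 passed only through PA milk and had to be higher. In PA milk, 40 genes were listed at 0 in all 3 libraries while at 1 FPKM or more in all 3 of ND, and 1 gene showed the reverse.

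**Figure D1:**
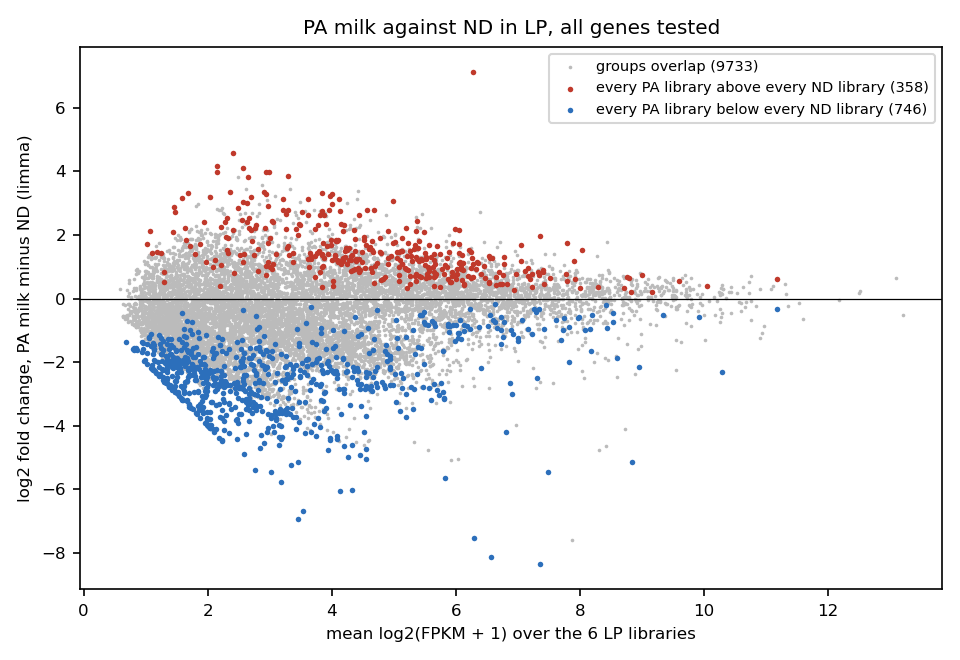
Log2 fold change between PA milk and ND in LP (vertical axis, limma on log2(FPKM + 1)) against the mean log2(FPKM + 1) of the 6 LP libraries (horizontal axis), 1 point per gene. Red points are the 358 genes with every PA library above every ND library and blue points the 746 with every PA library below. A larger part of the blue than of the red points lies at low levels.

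The enzymes of cholesterol synthesis stood among the lower genes. Of 31 tested genes of cholesterol synthesis and uptake, 23 were lower and 8 higher in PA milk, and the median of their log2 fold changes was -1.39. In 10 of the 31 (32.3%) every PA library lay below every ND library, beside 6.88% of all genes, and in 1 (Nr1h2) above. At an unadjusted p under 0.05, 5 were lower and 0 higher, and limma called 0 after adjustment. Without PA replicate 2 the median was -0.61, with 12 of the 31 genes (38.7%) below every ND library in both remaining PA libraries, beside 11.1% of all genes. Scaled on genes common to leukocytes, the median was -1.05. Of the 31 genes, 11 were under 1 FPKM in PA replicate 2 alone, beside 2362 of all 10837 tested genes. The 16 with the higher mean level had a median of -1.47 (6 higher and 10 lower), and the other 15 one of -1.13 (2 higher and 13 lower). Only 12 of the 31 reached 1 FPKM in all 6 LP libraries, which leaves out genes low in any library. Of these 12, 8 were higher and 4 lower, with a median of 0.33, beside 0.18 for all genes at that level. In 2 (16.7%) every PA library lay below ND, beside 3.44% of all such genes, and in 1 (8.33%) above, beside 7.01%.

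Along the pathway, the genes that separated the groups began early. Mvk, mevalonate kinase, was listed at 0, 0 and 7.94 FPKM under PA milk versus 35.4, 41.8 and 23.4 under ND, a log2 fold change of -4.02 (SE 1.49, limma adjusted p 0.965). Idi1, which makes the second isoprenoid building unit, was at 7.38, 0.0343 and 26.0 against 63.6, 47.9 and 78.8, a log2 fold change of -3.36. The groups did not overlap for either gene, and PA replicate 3 was the PA library nearest to ND. Fdps, farnesyl diphosphate synthase, was at 29.9, 0.264 and 106 FPKM under PA milk versus 155, 124 and 164 under ND, a log2 fold change of -3.20.

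Later steps had the same order of groups. Sc4mol, a sterol methyl oxidase now named Msmo1, lies on chromosome 8 of GRCm38 from 64718139 to 64733792 on the minus strand. It was at 0.193, 0.0564 and 42.3 FPKM under PA milk versus 89.1, 66.0 and 73.1 under ND (14.2 ± 24.3 against 76.1 ± 11.8, SD, n = 3 each). The log2 fold change was -4.33 (SE 1.21, limma adjusted p 0.786), and ranged from -6.09 to -3.41 over the fits lacking a single LP library. Without PA replicate 3 it was called (adjusted p = 0.0271 from limma), which rests on the other PA libraries alone. Fdft1, Cyp51, Nsdhl and the sterol carrier gene Stard4 also lay below ND in all 3 PA libraries.

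The pathway was not uniform. Mvd, Pmvk and Dhcr7, which are enzymes of the same route, had log2 fold changes of 0.90, 0.24 and 0.61 with overlapping groups. Srebf2, the factor that controls the set, was at 33.3, 109 and 21.3 FPKM under PA milk versus 18.7, 33.2 and 30.3 under ND, so the groups overlapped. Summed over 19 enzymes from Hmgcs1 to Dhcr7, of which 18 were tested, the level was 203, 361 and 432 FPKM under PA milk versus 741, 636 and 720 under ND. This sum lay below ND in every PA library, PA replicate 2 included. In PA replicate 2, however, 11 of the 18 tested enzymes were under 1 FPKM, beside 5444 of all 10837 tested genes. The median log2 fold change of the 18 was -1.74, and -0.89 without PA replicate 2. In IEL, the median of the 31 genes was -0.45, and the difference between the layers had an unadjusted p under 0.05 for 1 of them.

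Promoters of 3 of these genes are shown because they are the lowest in PA milk among those with a RefSeq promoter entry (GRCm38.p6, 250 bases before to 50 after the gene start, 5′ to 3′ on the gene's strand). Capitals mark CCAAT, the letters known as the binding motif of NF-Y, a partner of Srebf2 at such promoters, on either strand (ATTGG on the other). They lie at chr8:64733529-64733828 on the minus strand for Sc4mol, at chr5:114444019-114444318 on the plus strand for Mvk and at chr13:8885356-8885655 on the plus strand for Idi1.
Sc4mol: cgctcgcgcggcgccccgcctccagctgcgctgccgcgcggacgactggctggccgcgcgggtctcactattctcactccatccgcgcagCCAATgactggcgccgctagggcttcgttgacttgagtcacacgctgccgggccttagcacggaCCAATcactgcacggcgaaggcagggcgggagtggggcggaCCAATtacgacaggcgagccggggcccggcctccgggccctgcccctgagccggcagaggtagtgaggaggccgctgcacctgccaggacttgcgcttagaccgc
Mvk: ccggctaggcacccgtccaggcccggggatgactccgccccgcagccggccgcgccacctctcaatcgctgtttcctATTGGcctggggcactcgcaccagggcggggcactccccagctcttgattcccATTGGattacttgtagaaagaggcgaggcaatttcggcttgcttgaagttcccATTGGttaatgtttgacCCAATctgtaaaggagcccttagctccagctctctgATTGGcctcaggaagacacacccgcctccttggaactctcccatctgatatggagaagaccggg
Idi1: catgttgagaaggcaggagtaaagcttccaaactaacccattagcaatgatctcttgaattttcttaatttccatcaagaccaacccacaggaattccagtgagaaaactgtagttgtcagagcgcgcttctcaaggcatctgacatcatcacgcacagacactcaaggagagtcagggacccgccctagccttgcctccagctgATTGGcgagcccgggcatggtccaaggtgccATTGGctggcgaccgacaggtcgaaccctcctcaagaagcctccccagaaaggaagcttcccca
The window held 3 copies for Sc4mol, 5 for Mvk and 2 for Idi1. Of the 31 tested genes, 23 had an entry, and 19 of the 23 (82.6%) held CCAAT, against 12289 of all 32851 promoters in the table (37.4%). A sterol-response-like motif, TCACNCCAC on either strand, was in 1 of the 23 (4.35%) and in 1.24% of all promoters. The shares of the list count genes, by any of their entries. Those of all promoters count single entries, of genes tested or not. These are matches of letters and no measure of binding.

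Genes of fatty acid handling showed no such order. Of 31 tested genes of fatty acid uptake, activation and synthesis, 12 were higher and 19 lower in PA milk with a median of -0.19, which was 0.12 with 18 of 31 higher without PA replicate 2. In 3 (9.68%, beside 6.88% of all genes) all PA libraries lay below ND. These were Acsl1, a fatty acyl-CoA synthetase, Elovl6, which elongates palmitate, and Dgat2, which makes triglyceride. Dgat2 was at 0.495, 7.27 and 0.0447 FPKM under PA milk versus 11.6, 42.0 and 57.0 under ND, a log2 fold change of -3.75 (SE 1.32, limma adjusted p 0.965). Dgat2 is also expressed by absorptive enterocytes, whose markers took 0.106%, 0.138% and 0.0203% of all FPKM under PA milk versus 0.084%, 2.11% and 0.621% under ND. Fatty acid oxidation and PPAR target genes had a median of -0.22 (11 of 31 higher). Cpt1a, the carnitine transferase that admits fatty acids to mitochondria, was at 62.5, 39.5 and 22.8 FPKM against 8.17, 16.1 and 29.3, with overlap. Cd36, a fatty acid transporter that endothelium also makes, was at 313, 33.9 and 497 against 27.5, 293 and 98.6, high in PA replicates 1 and 3. Pparg, a nuclear receptor for fatty acids, was at 21.1, 177 and 12.6 against 7.09, 11.4 and 5.61, above ND in every library.

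Sphingolipid and ceramide genes had a median of -0.38 over 27 tested genes, and 0.08 without PA replicate 2. Sptlc2, a subunit of the enzyme that joins palmitoyl-CoA to serine, was at 137, 0 and 105 FPKM under PA milk versus 49.3, 52.7 and 56.6 under ND, high in PA replicates 1 and 3 and listed at 0 in replicate 2. Of 33 tested genes of Toll-like receptors, the inflammasome and NF-kB, 9 were higher, with a median of -0.55 (0.19 without PA replicate 2). Il1b, the gene of interleukin-1 beta, was listed at 0, 0.163 and 72.8 FPKM under PA milk versus 337, 48.4 and 60.2 under ND. Its groups overlapped through PA replicate 3, and the log2 fold change was -4.51 (SE 1.61, limma adjusted p 0.965). Gsdmd, which forms pores in inflammasome activation, was at 90.0, 81.1 and 118 against 19.6, 68.7 and 77.2, above ND in every PA library.

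**Figure D2:**
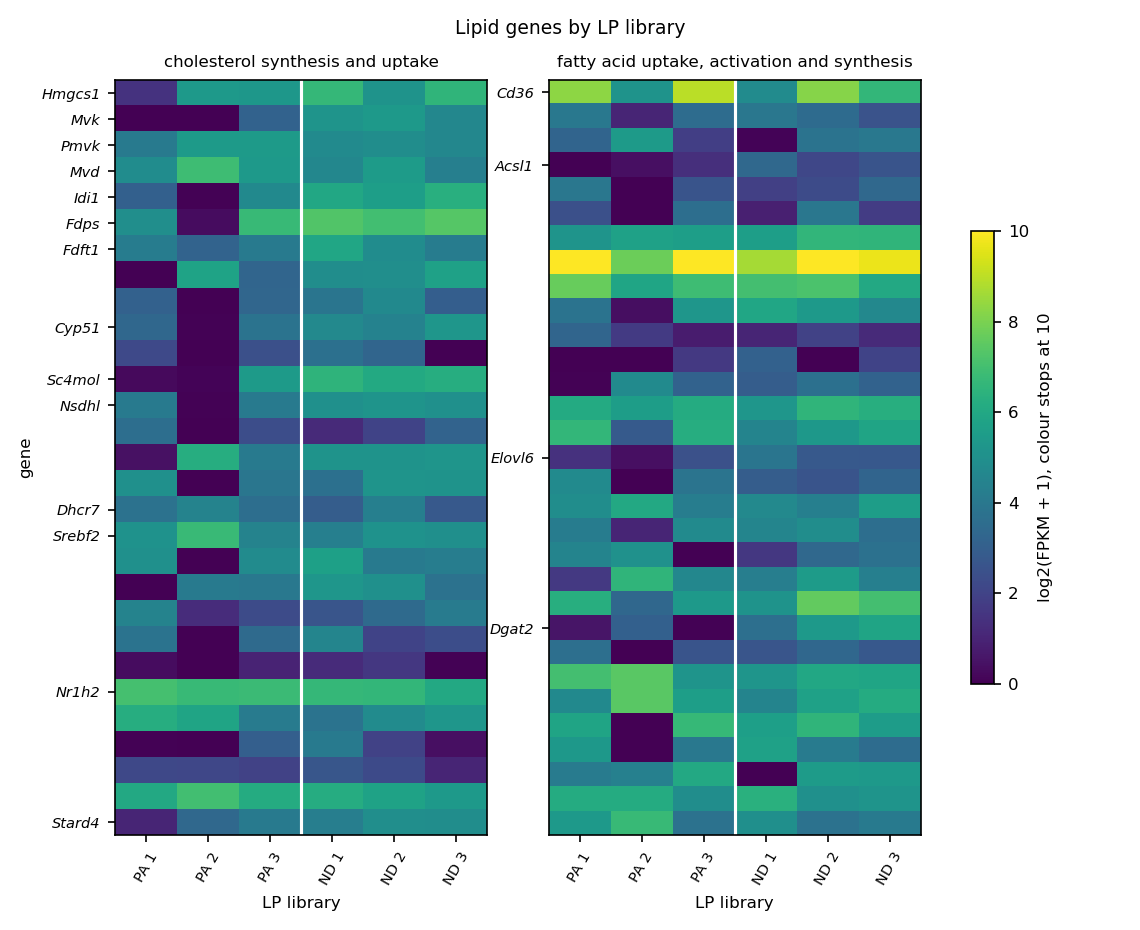
Log2(FPKM + 1) of tested genes (rows) in each LP library (columns, PA milk left and ND right of the white line) for cholesterol synthesis and uptake and for fatty acid uptake, activation and synthesis. Genes described in the text are labelled. Yellow is high and dark purple is 0, and the colour stops at 10. Mvk, Sc4mol and Dgat2 are dark in PA replicates 1 and 2 or 3 and lighter in all ND libraries.

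Of the 2502 genes at 10 FPKM or more in all 6 LP libraries, every PA library lay above ND for 171 (6.83%) and below for 86 (3.44%). H2-T23 was 1 of the 171. H2-T23, a class I-like molecule (Qa-1) that presents leader peptides to receptors of the NKG2 family, was at 281, 303 and 396 FPKM under PA milk versus 115, 92.0 and 52.9 under ND. All PA libraries, replicate 2 included, lay above all ND libraries, at a log2 fold change of 1.96 (SE 0.64, limma adjusted p 0.965) that stayed between 1.64 and 2.19 with each LP library left out. Its class I relatives overlap it in sequence, so reads may be split between them. Other members went the other way. H2-Q10, H2-Q2 and the lipid-presenting Cd1d1 lay below ND in every PA library, Cd1d1 at 0, 0 and 2.80 FPKM against 19.5, 11.2 and 20.3. Over 22 tested genes of class I presentation, 8 were higher and 14 lower, with a median of -0.67 that became 0.32 without PA replicate 2.

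The 12 abundant genes with the largest positive log2 fold change also held Blvra, biliverdin reductase, Mapk14, the p38 alpha kinase, Mat2a, which makes S-adenosylmethionine, and Mrpl2, a mitochondrial ribosomal protein. Mat2a was at 364, 288 and 129 FPKM under PA milk versus 54.8, 97.3 and 72.1 under ND, a log2 fold change of 1.70 (SE 0.57, limma adjusted p 0.965). Mapk14 was at 73.5, 111 and 35.7 against 10.6, 22.3 and 21.3, a log2 fold change of 1.89. Both were among the 76 of 10837 tested genes that separated the groups in both layers in the same direction, a count not set against chance. Their log2 fold changes in IEL were 0.62 and 1.62. Blvra was at 97.7, 431 and 57.5 FPKM against 27.1, 43.9 and 20.4, its highest value being that of PA replicate 2. The others were Taf13, Nudt22, Ifi47, Trmt1, Rcl1, Bag5 and Dnajb4, with log2 fold changes of 1.58 to 2.13. Of the 12, 0 were called by limma.

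Less abundant genes were higher by more. Mlf1 was at 40.8, 59.4 and 5.94 FPKM under PA milk versus 0, 0 and 0.318 under ND, a log2 fold change of 4.57 (SE 0.82, limma adjusted p 0.198), the smallest p among the higher genes named. Postn, periostin, a matrix protein of fibroblasts, was at 9.62, 23 and 16.6 against 0, 0 and 3.06. Zfp202, Acrbp, Gna14, L3mbtl3, Fam189a2, Pydc3 and D11Wsu47e were likewise above ND in every PA library, with log2 fold changes of 2.40 to 4.18. Mlf1, Zfp202, Acrbp and L3mbtl3 were under 1 FPKM in all 3 ND libraries. These genes passed the level filter only through PA milk and so had to be higher, which limits what the p of Mlf1 shows. Of the cell cycle genes, Cdk4 was at 361, 727 and 178 FPKM against 167, 142 and 170 and Cdk2 at 21.6, 49.1 and 17.5 against 6.58, 2.09 and 0.324. Both lay above ND in every PA library, while 20 of the 36 tested genes of the cell cycle and DNA replication were higher and the median was 0.25 (-0.34 without PA replicate 2 and -0.07 after upper quartile scaling).

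**Figure D3:**
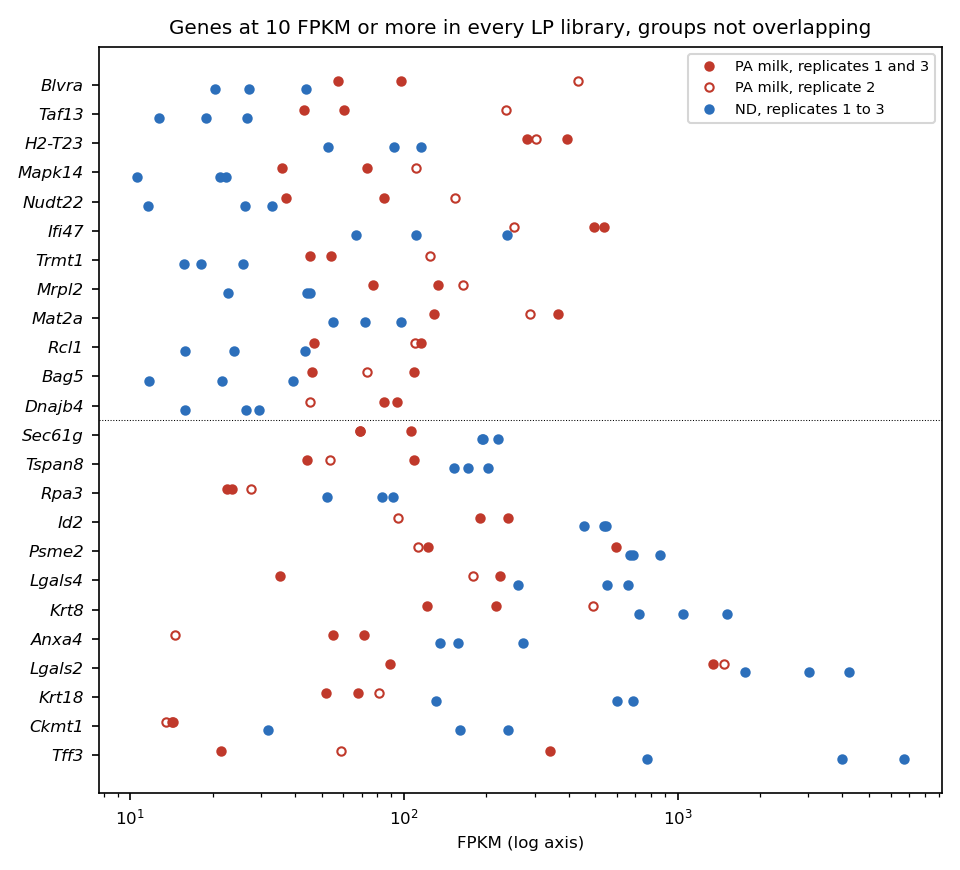
FPKM (horizontal log axis) in each LP library of the 24 genes that had at least 10 FPKM in all 6 libraries, did not overlap between PA milk and ND and had the largest log2 fold changes, 12 higher above the dotted line and 12 lower under it. Red points are PA milk, open for replicate 2, and blue points are ND. For H2-T23 the PA libraries lie at 281 to 396 and the ND libraries at 52.9 to 115.

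On the lower side, abundant genes held a developmental factor, subunits of protein import and epithelial genes. Id2 was at 190, 95.2 and 240 FPKM under PA milk versus 539, 455 and 546 under ND. Sec61g and Sec61b encode small subunits of the channel through which new proteins enter the endoplasmic reticulum. Sec61g was at 69.1, 69.3 and 106 FPKM under PA milk versus 194, 193 and 220 under ND (log2 fold change -1.33, SE 0.49, limma adjusted p 0.965), and Sec61b at 206, 245 and 310 against 485, 402 and 542 (log2 fold change -0.91). The groups did not overlap for either gene, and PA replicate 2 sat among the other PA libraries. Psme2, a proteasome activator subunit induced by interferon, was at 123, 112 and 597 against 685, 862 and 671, and Rpa3, a subunit of the single-strand DNA binding complex, at 23.5, 27.6 and 22.5 against 83.2, 52.3 and 91.1. The remaining 8 of the 12 lower abundant genes were Tff3, Ckmt1, Krt18, Lgals2, Anxa4, Krt8, Lgals4 and Tspan8, all of which intestinal epithelial cells express.

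The 75 tested genes of the respiratory chain and ATP synthase reached 1 FPKM in all 6 libraries. Among them, 27 were higher and 48 lower in PA milk, with a median of -0.15, and 9 (12%) lay below ND in all 3 PA libraries while 0 lay above, beside 6.88% and 3.3% of all genes. Without PA replicate 2 the median was -0.31 and 19 (25.3%) lay below, beside 11.1% of all genes. With all 6 libraries, the shares below and above were 3.44% and 7.01% among all genes that reached 1 FPKM in each of them. Uqcrc1, a core subunit of complex III, was at 156, 177 and 164 FPKM under PA milk versus 299, 349 and 278 under ND, 166 ± 10.5 against 309 ± 36.2 (SD, n = 3 each). The log2 fold change was -0.89 (SE 0.35, limma adjusted p 0.965) and stayed between -0.96 and -0.80 with each LP library left out. Uqcrc2 and Uqcrfs1 of the same complex, Ndufs8, Ndufb5, Ndufc1, Ndufs1 and Ndufv3 of complex I, and Cox4i1 of complex IV made up the rest. Uqcrfs1, which carries the Rieske iron-sulfur cluster, was at 95.6, 98.6 and 108 against 205, 227 and 225. Among the family the direction of the median depended on the scaling, since it was 0.20 with 55 of 75 higher after scaling on leukocyte genes and -0.50 after upper quartile scaling. Cytosolic ribosomal proteins had 66 of 78 genes higher and a median of 0.23 that was 0.05 without PA replicate 2 and -0.13 after upper quartile scaling.

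Heat shock and oxidative stress genes had 18 of 30 higher, with a median of 0.35 and of 0.60 without PA replicate 2, and -0.00 after upper quartile scaling. Hspa8, a constitutive chaperone, was at 2844, 2763 and 3030 FPKM under PA milk versus 2259, 2116 and 1381 under ND, above ND in every PA library (log2 fold change 0.62, SE 0.30, limma adjusted p 0.965). Gclc and Gclm, the subunits of the glutathione-making ligase, and Sod1 did the same, so that 4 of the 30 genes (13.3%) lay above ND in every PA library, beside 3.3% of all genes. Among the 24 of the 30 that reached 1 FPKM in all 6 LP libraries, the share was 16.7%, beside 7.01% of all genes at that level. Of 31 tested genes of the unfolded protein response and ER chaperones, 2 were higher and 29 lower. Their median was -0.91 with all libraries and -0.29 without PA replicate 2, and Asns was the only member above ND in every PA library.

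Interferon-induced genes were split between PA libraries. Of 26 tested genes of the type I interferon response, 15 (57.7%) were above every ND library in both PA replicates 1 and 3. This held for 12.9% of all genes. Of the 26, 18 were under 1 FPKM in PA replicate 2, beside 5444 of all 10837 tested genes. Of 26 tested genes of interferon-gamma GTPases and signalling, 14 (53.8%) were above ND in both libraries and 15 were under 1 FPKM in replicate 2. With all 6 libraries the medians were -0.35 and -0.32 (-0.00 and 0.02 after scaling on leukocyte genes), and without PA replicate 2 they were 1.15 and 1.59.

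The immunity-related GTPases, which act on membranes of vacuoles holding microbes, showed this most fully. All 7 tested members were above every ND library in PA replicates 1 and 3. Irgm1 was at 179, 45.5 and 189 FPKM under PA milk versus 96.6, 86.1 and 29.9 under ND, a log2 fold change of 0.87 that was 1.53 without PA replicate 2. Igtp was at 214, 13.7 and 240 against 35.9, 70.5 and 46.2. Ifi47 alone of the 7 also had replicate 2 above ND, at 495, 252 and 537 FPKM against 111, 238 and 66.9. Members of this family share sequence, and reads may be split between them. Of these 7, 1 was under 1 FPKM in PA replicate 2. Of 9 tested guanylate-binding proteins, 4 were above every ND library in PA replicates 1 and 3, and all 9 were under 1 FPKM in replicate 2. Gbp4 was at 232, 0.107 and 452 FPKM under PA milk versus 89.2, 122 and 74.7 under ND, a log2 fold change of -0.95 that turned to 1.79 without PA replicate 2.

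Rsad2, the antiviral enzyme viperin, was the only tested type I gene above ND in all 3 PA libraries. It was at 57.5, 30.9 and 6.16 FPKM under PA milk versus 0, 3.35 and 0.0807 under ND. All 3 PA libraries, replicate 2 included, lay above ND, with a log2 fold change of 3.82 (SE 0.94, limma adjusted p 0.551) that stayed between 3.17 and 4.69 with each LP library left out. In IEL its log2 fold change was -0.37. Irf9, which carries the interferon signal, overlapped between the groups, and Bst2 was lower in 2 of the 3 PA libraries than in every ND library.

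Promoters of Rsad2 and Irgm1 are shown as the type I and the interferon-gamma example (RefSeq, GRCm38.p6, same window). Capitals mark GAAANNGAA, an interferon-response-like motif, on either strand, and overlapping copies run together. The Rsad2 window is chr12:26456403-26456702 and the Irgm1 window chr11:48871371-48871670, both on the minus strand.
Rsad2: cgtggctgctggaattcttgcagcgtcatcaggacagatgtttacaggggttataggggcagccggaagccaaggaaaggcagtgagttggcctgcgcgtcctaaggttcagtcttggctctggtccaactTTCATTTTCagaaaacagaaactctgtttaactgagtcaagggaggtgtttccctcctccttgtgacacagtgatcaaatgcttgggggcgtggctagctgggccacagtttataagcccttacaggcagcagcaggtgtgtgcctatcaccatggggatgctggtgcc
Irgm1: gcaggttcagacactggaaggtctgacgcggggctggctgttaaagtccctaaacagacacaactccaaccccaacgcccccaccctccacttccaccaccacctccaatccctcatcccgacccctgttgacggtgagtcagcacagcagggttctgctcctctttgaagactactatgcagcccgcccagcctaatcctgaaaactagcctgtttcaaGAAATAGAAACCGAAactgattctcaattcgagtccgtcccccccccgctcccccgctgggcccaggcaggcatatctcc
Rsad2 held 1 copy and Irgm1 2. Of the type I genes with an entry, 13 of 21 (61.9%) held the motif, and of the interferon-gamma genes 11 of 18 (61.1%), against 8.56% of all promoters. Here too, the lists are counted by gene and all promoters by single entry.

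Endothelial genes had the same order of libraries. Plvap, a protein of fenestrated vessels, was at 4504, 1.01 and 4458 FPKM under PA milk versus 1158, 2633 and 1455 under ND. Pecam1 was at 335, 0.120 and 383 against 85.9, 230 and 113. Of 6 tested endothelial genes, 5 were above every ND library in PA replicates 1 and 3, and 5 were under 1 FPKM in replicate 2, Vwf being the exception to the first and Plvap to the second. Over the whole list of 25 tested genes of stroma, endothelium, muscle and glia, 6 (24%) were above ND in both libraries, beside 12.9% of all genes. Its genes made up 1.05%, 0.0167% and 0.942% of all FPKM in PA milk and 0.185%, 0.613% and 0.836% under ND. The type I genes made up 0.997%, 0.072% and 1.04% in PA milk and 0.237%, 0.597% and 0.352% under ND. Both were high in PA replicates 1 and 3 and lowest in replicate 2, and the part of endothelial RNA in the interferon values was not tested. In such bulk samples, fewer cells of a type and less RNA per cell cannot be told apart.

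**Figure D4:**
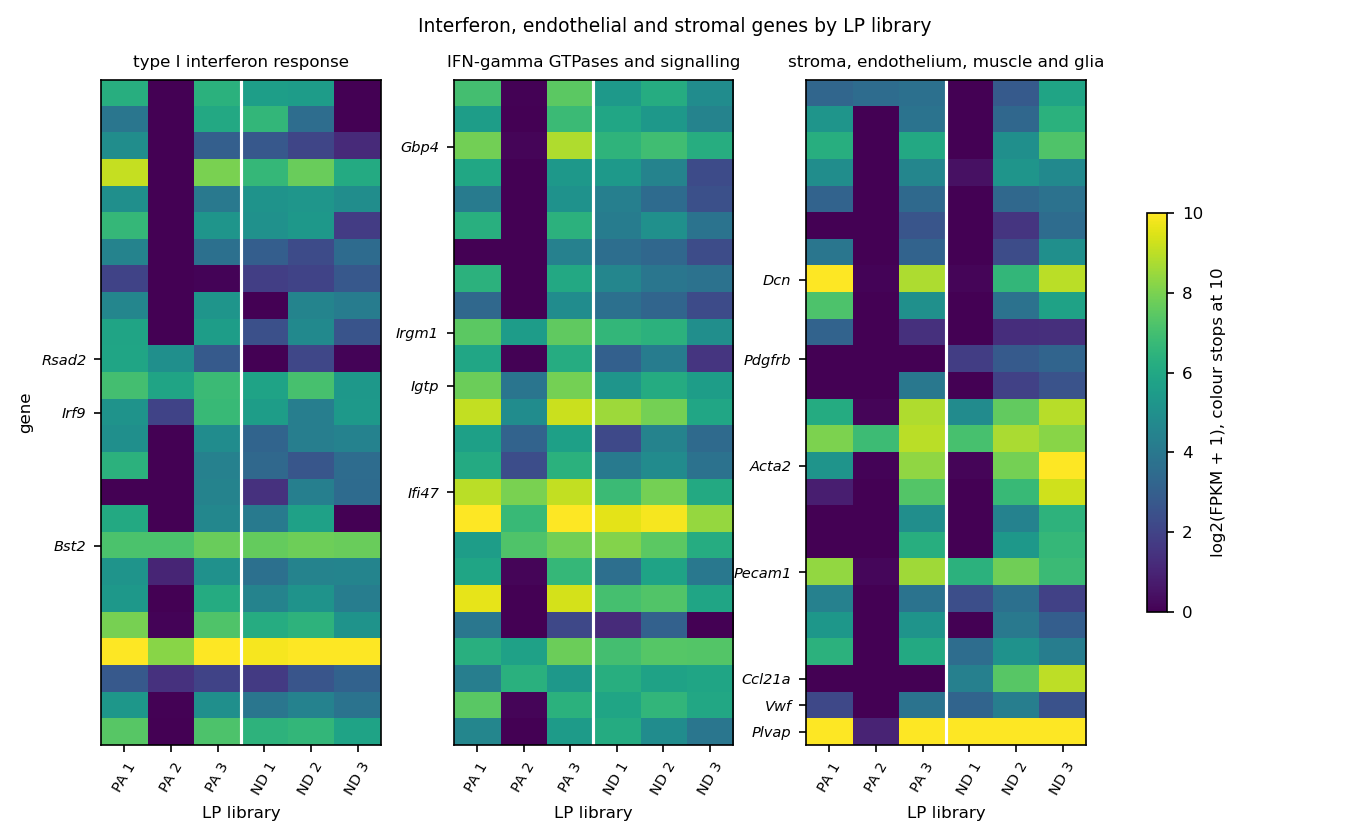
Log2(FPKM + 1) of tested genes (rows) in each LP library (columns, PA milk left and ND right of the white line) for the type I interferon response, interferon-gamma GTPases and signalling, and stroma, endothelium, muscle and glia. The colour runs from 0 (dark purple) to 10 and above (yellow). The column of PA replicate 2 is mostly dark in all 3 panels, with 18 of 26 and 15 of 26 interferon genes under 1 FPKM. In that library, 5444 of all 10837 tested genes were under 1 FPKM.

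Fibroblast and muscle genes varied within both groups. Dcn, the fibroblast proteoglycan decorin, was at 1973, 0.0575 and 432 FPKM under PA milk versus 0.0909, 97.1 and 492 under ND. It was near 0 in PA replicate 2 and in ND replicate 1, and its log2 fold change of 1.37 turned to -0.81 without PA replicate 1 and to -1.18 without ND replicate 1. Muscle genes such as Acta2 were highest in ND replicate 3, at 1286 FPKM. Of the listed stromal genes, Ccl21a, a chemokine of lymphatic vessels, and Pdgfrb, a pericyte receptor, were listed at 0 in all 3 PA libraries. Pdgfrb was at 2.51, 6.07 and 8.36 in ND, and Ccl21a at 19.4, 168 and 518. Both passed the level filter only through ND and so had to be lower. This limits what the adjusted p of Ccl21a (0.0533 from limma) shows. Ccl21a has near-identical copies in the mouse genome, so its count is uncertain.

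Transcription factors of innate lymphoid cells were lower as a list, with 13 of 16 tested genes below 0 and a median of -1.38 (-0.38 without PA replicate 2). Tcf7, a factor of early lymphoid development, was listed at 0, 0 and 25.6 FPKM under PA milk versus 81.4, 68.0 and 24.8 under ND (log2 fold change -4.14, SE 1.81, limma adjusted p 0.965). Batf, an AP-1 partner, was listed at 0, 0 and 129 against 99.3, 145 and 96.8. PA replicate 3 was within the ND range for both. In PA replicate 2, 12 of the 16 genes were under 1 FPKM, beside 5444 of all 10837 tested genes. Id2 was the only member below ND in all 3 PA libraries. Cxcr5, which guides cells to follicles, was listed at 0, 0 and 0.0380 FPKM under PA milk versus 25, 6.46 and 21.0 under ND. It passed the level filter only through ND and so had to be lower. Gpr183, the oxysterol receptor that positions ILC3s, was at 0.0854, 0.0667 and 59.7 against 47.5, 166 and 74.0. Of 24 tested genes of chemokine receptors and gut homing, 4 (16.7%) lay below ND in every PA library, beside 6.88% of all genes. In 1 (4.17%) every PA library lay above, beside 3.3%. Cd69, a retention and activation molecule, was at 16.0, 0 and 60.9 against 75.9, 225 and 137. In a separate list, that of ILC cytokine receptors, Tnfrsf11a, the RANK receptor, went the other way. It was at 12.1, 35.8 and 13.6 FPKM against 7.05, 4.28 and 0.1, above ND in every PA library. This held for 1 of the 17 tested genes of that list (5.88%), beside 3.3% of all genes.

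Transcripts of other gut cells were present in both groups, and 0 of their genes were called. Goblet cell genes took 0.0315% to 0.207% of all FPKM in PA milk and 0.391% to 4.88% in ND, with no overlap, and 7 of 13 tested genes (53.8%) lay below ND in all 3 PA libraries, beside 6.88% of all genes, 1 of the 13 having passed the level filter only through ND. Agr2, a disulfide isomerase of mucus-making cells, was at 0.705, 0.991 and 55.2 FPKM against 5144, 153 and 1502, and Fcgbp, a mucus protein, at 0.0101, 0.0354 and 4.88 against 166, 19.5 and 80.2. Pan-epithelial genes had 23 of 24 lower, with a median of -2 and shares of 0.0751% to 0.341% in PA milk and 0.463% to 1.01% in ND. Enterocyte genes had 17 of 18 lower, while their shares of 0.0203% to 0.138% in PA milk and 0.084% to 2.11% in ND overlapped. B and plasma cell genes had 15 of 15 lower, 3 of which passed the filter only through ND, and without PA replicate 2 there were 3 of 15 higher. Ms4a1 and Spib of B cells were listed at 0 in all 3 PA libraries and are of the former kind. Of 12 tested Paneth cell genes, 5 were higher and 7 lower, with a median of -0.36 (-0.69 without PA replicate 2). Defa5, a Paneth cell defensin that passed the filter only through PA milk and had to be higher, was at 1.10, 3.43 and 8.16 FPKM in PA milk and listed at 0 in all 3 ND libraries. Defensins are near-identical copies of each other, so this count is uncertain. What these cells add to the values of genes they share with ILC3s, such as Dgat2, was not tested.

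**Figure D5:**
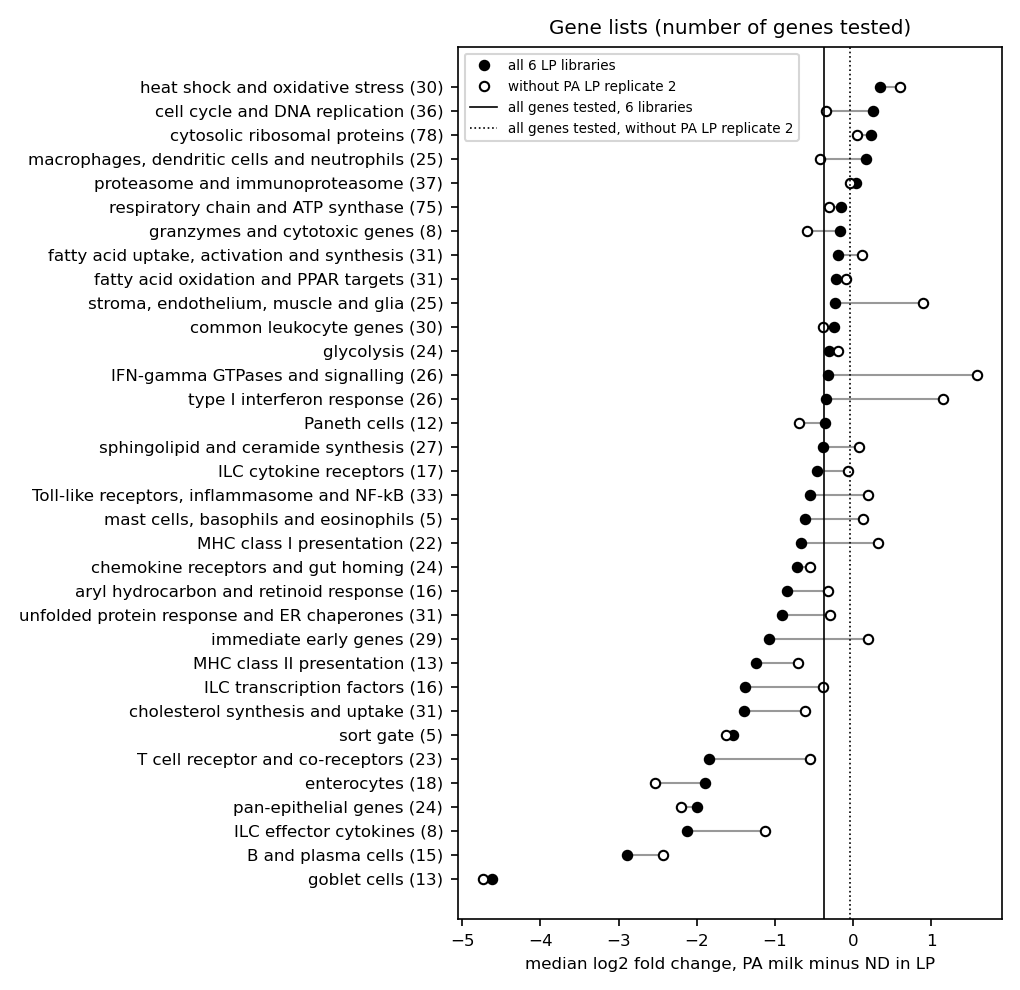
Median log2 fold change between PA milk and ND in LP for each gene list with at least 5 tested genes (number in brackets), with all 6 libraries (filled) and without PA replicate 2 (open). Vertical lines are the medians of all genes, -0.37 (solid) and -0.04 (dotted). The interferon, stroma and immediate early lists go from below 0 to above 0 without PA replicate 2, while goblet, epithelial, B cell and cholesterol lists stay below 0.

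Immediate early genes, which respond within minutes to cell handling and signals, were lower for 27 of 29 tested genes, with a median of -1.08. This too rested on PA replicate 2, without which 20 of 29 were higher with a median of 0.19. Fos was at 4217, 125 and 6145 FPKM under PA milk versus 2157, 3279 and 2838 under ND, and Atf3 at 1717, 0.206 and 2128 against 1063, 822 and 859. For both genes, PA replicates 1 and 3 were above every ND library. In total, 10 of the 29 genes (34.5%) had this pattern, beside 12.9% of all genes.

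The difference between LP and IEL in the effect of PA milk was tested across the same genes. Limma called 0 genes (0.0%), the smallest adjusted p rounded to 1, and 249 genes had an unadjusted p under 0.05, 340 with limma-voom, which also called 0. Sc4mol had a log2 fold change of -4.33 in LP and 0.02 in IEL, and Idi1 of -3.36 in LP and -2.70 in IEL. H2-T23 had 1.96 and 1.42, and Ifi47 1.74 and -2.29. None of these differences between the layers was called (limma adjusted p rounding to 1 for each).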

How the data were processed

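RNA of sorted ILC3s from 12 samples was measured by RNA sequencing. The authors deposited FPKM per gene and a table of scaled counts, a signal that was normalized and rounded and is not raw counts; the submitters' processing notes name the build mm10 and the tools TopHat2 2.1.1, Bowtie2 2.2.8.0, SAMtools 0.1.18, Cufflinks 2.2.1 and Cuffdiff 2.2.1, without their settings. Genes with 1 FPKM or more in at least 3 of the 6 LP libraries were kept (10837). Limma 3.58.1 (R 4.3.3) was fitted to log2(FPKM + 1) with a mean-variance trend, 4 group means over all 12 libraries (8 residual degrees of freedom, one shared spread) and Benjamini-Hochberg adjustment over all genes, 2-sided, with a threshold of 0.05. Fold changes are on the log2(FPKM + 1) scale, which understates those of low genes. Reads per library were worked out from the steps between low scaled counts, within a tolerance of 0.05, and served limma-voom as an alternative. The SE and SD values come from the spread between libraries, and no intervals are given.

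Named genes were those passing the test, the 12 with the largest fold change in each direction among genes at 10 FPKM or more in all 6 LP libraries without overlap, the 12 with the smallest p in each direction without overlap, and for each list the 4 members with the highest mean level, members under the former rules and members at an unadjusted p under 0.05; small RNA genes and clone names were left out of the rules on fold change and on p. Other genes in the text were chosen after their values were seen. Members and lists were chosen with earlier results of these data known. Promoters came from RefSeq (GRCm38.p6) and positions from GENCODE vM21. Near-identical paralogs may share reads. Tests were tested on simulated data. Other scalings, filters, pseudocounts, weights, a replicate block and each library left out were tried. Figures were drawn with Python 3.11.15 and matplotlib 3.10.9. A few genes of the lists are counted in their totals and not reported here by name or drawn in the figures.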

Additional observations from a re-analysis of the deposited data

Results flagged for a closer look

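The difference in Id2 between PA milk and ND had opposite directions in the layers. In LP, Id2 was below ND in every PA library, and in IEL it was at 750, 326 and 586 FPKM under PA milk versus 110, 217 and 273 under ND. The difference of the log2 fold changes, LP minus IEL, was -3.12 (standard error 0.71, adjusted p rounding to 1 from limma's interaction term), so it did not pass the test. Uqcrc1 was likewise below ND in every LP library of PA milk and above in every IEL library, at 593, 579 and 631 FPKM against 563, 492 and 517. Its difference was -1.09 (standard error 0.50, adjusted p rounding to 1 from limma). Among the 10837 tested genes, 30 separated the groups in both layers in opposite directions. Id2 and Uqcrc1 were 2 of the 16 of these that lay below ND in LP and above ND in IEL. Another 76 genes separated the groups in both layers in the same direction. Neither count was set against the number that a random order of the libraries would give.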

How the results depend on the processing

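The count of called genes in LP was 0 under the settings tried with these exceptions. A pseudocount of 0.1 gave 2 and array weights gave 2, in each case Gm5480 and Ccl21a. Leaving out 1 library gave 0 to 8, with 8 without PA replicate 3 (Sc4mol, Mlf1, Zg16 and Mgst2 among them) and 1 (Ccl21a) without ND replicate 1. The difference between the layers gave 0 throughout, 0 to 0 with a library left out. With the replicate number as a block, 0 genes were called, with 559 at an unadjusted p under 0.05 in LP and 242 for the difference. Deviations from the group means of same-numbered PA and ND libraries of LP correlated at -0.14 to -0.02. Those of same-numbered LP and IEL libraries of a diet correlated at -0.02 to 0.07. With 3 libraries per group, such correlations cannot show whether the numbers pair the samples. The test of the difference between the layers treated all libraries as independent.

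Of 74 gene results, 4 were reversed under at least 1 of up to 17 alternatives. Many of the others were named because their groups do not overlap, so that leaving out a library could not turn them. Gbp4 turned to 0.93 with array weights, 1.79 without PA replicate 2 and 1.25 as a ratio of mean FPKM. Plvap turned to 0.20, 1.45 and 0.77 and Pecam1 to 0.43, 1.45 and 0.74 under the same. Dcn turned to -0.81 without PA replicate 1 and to -1.18 without ND replicate 1. With each LP library left out, these ranged from -2.55 to 1.79 for Gbp4, -4.12 to 1.45 for Plvap, -2.76 to 1.45 for Pecam1 and -1.18 to 4.62 for Dcn. The median of all genes was -0.62 after upper quartile scaling, -0.10 after scaling on leukocyte genes and -1 with voom. Of 36 lists, 16 kept the sign of their median under both scalings and each library left out. PA replicate 2 was under 1 FPKM in 5444 tested genes, with 9.85 reads worked out in units of 1e6. ND replicate 3 had 11282 genes at 1 FPKM or more, with 9.28. Why fewer genes were seen in PA replicate 2 was not tested.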
